A study of Mus musculus with 6 samples.

Results

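The MHC class II antigen presentation pathway was followed through 10 genes in mouse bone marrow-derived macrophages, cells grown in culture from marrow precursors. The genes were taken by symbol: the surface chains H2-Aa, H2-Ab1 and H2-Eb1, the invariant chain Cd74, the peptide editor chains H2-DMa, H2-DMb1 and H2-DMb2, the endosomal enzymes Ctss and Ifi30, and the class II transactivator Ciita. All 10 were found, each on 1 row, among 55736 genes of the deposited table. Expression was measured by RNA sequencing in 3 libraries from wild-type cells given 200 ng/ml lipopolysaccharide (LPS) and in 3 control libraries (Ctrl) from wild-type cells, all at 24 h. LPS is a glycolipid of the Gram-negative outer membrane that activates Toll-like receptor 4. LPS sample titles also hold a 500 that the labels do not explain, and they name no strain, sex or age and no treatment of the control cells. The series concerns polarization of macrophages and the chemokine CCL7, and the comparison made here asks how the class II pathway differs between LPS-treated and control macrophages.

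Class II molecules are pairs of an alpha and a beta chain that carry peptides from endosomes to the surface for CD4 T cells. The invariant chain, encoded by Cd74, escorts new pairs to the endosome, where cathepsin S (Ctss) trims it, the thiol reductase GILT (Ifi30) opens disulfide bonds of antigens, and the DM dimer (H2-DMa with H2-DMb1 or H2-DMb2) exchanges the remaining fragment for peptide. Class II promoters carry X and Y boxes bound by the RFX, CREB and NF-Y factors, and CIITA, which binds no DNA itself, is recruited to that complex. In macrophages CIITA is known as the factor that interferon gamma induces to switch these genes on.

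The values are TPM, transcript abundances per unit of length that sum to 1000000 in every library by the authors' scaling. Levels can be set beside each other between genes only as far as the gene lengths used are right. The authors list 1128 bases for H2-Aa and 4237 for Ciita, where all annotated exons of these genes cover 3798 and 9535 bases. Read depth cannot be recovered from TPM, so neither counting errors nor detection limits are known. Saa3 and Fth1 held 17.6% ± 0.497 of TPM in LPS and 2.02% ± 0.0964 in Ctrl libraries (SD, n = 3 each), and a fixed total lowers the TPM of all other genes when a few take more. The median change of 12440 tested genes was -0.44 on the log2(TPM + 1) scale, LPS minus Ctrl, and median-of-ratios scaling moved it by 0.41 to -0.03. That scaling raises every LPS value and lowers every Ctrl value, so it acts against falls and not against rises. Ctrl replicate 2 stood apart from the other Ctrl libraries on the second principal component, which held 3.56% of the variance. The labels do not tell whether replicate libraries are from different cultures or animals, and p-values therefore reflect library spread alone, which may be technical.

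All 10 markers of macrophages were above 1 TPM in at least 1 library, and their sum was between 35352 and 37864 TPM in LPS and between 26943 and 28543 TPM in Ctrl libraries. Dendritic cells and B cells, which also hold class II molecules, were represented weakly. The 10 dendritic cell markers summed to between 10.5 and 13.7 TPM in LPS and between 13.7 and 18.0 TPM in Ctrl libraries, with only Itgax and Batf3 above 1 TPM in any library. The 10 B cell markers summed to at most 0.97 TPM in LPS and 1.15 TPM in Ctrl libraries, with Blk listed at 0 throughout and only Cd79b above 1 TPM in any library. The 10 neutrophil markers summed to 117 to 136 TPM in LPS and 36.5 to 41.5 TPM in Ctrl libraries. S100a8, at 72.9 to 89.6 TPM in LPS and 3.16 to 5.24 TPM in Ctrl libraries, made most of that difference. Of these markers 3 were tested, S100a8, Camp and Mmp8, and all 3 rose, where 16.3% of all tested genes rose. Camp reached 1 TPM in LPS libraries only, so a rise was a condition of its being tested. Mmp8 overlapped between the groups, and Ly6g and Retnlg were listed at 0 in all 6 libraries. The 8 T cell markers summed to 0.57 to 1.57 TPM in LPS and 0.86 to 3.91 TPM in Ctrl libraries, and the 8 stromal markers to 7.78 to 8.85 TPM in LPS and 5.68 to 7.42 TPM in Ctrl libraries. The part of these cells in the results was not tested, and in bulk RNA fewer cells of a type and less RNA per cell cannot be told apart.

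Promoter sequence was at hand for 7 of the 10 genes, from 250 bases before to 50 after each start in RefSeq on GRCm38.p6; H2-Ab1, Cd74 and Ciita were not matched. The first 3 stretches below are shown because they hold letters of the X, X2 or Y boxes through which CIITA is known to act. That of Ctss is shown beside them because it holds none of these and holds an interferon response element. They are written 5′ to 3′ on the gene's strand, with capitals for the X box core (GNAAC, any 2 bases and ATG, or extended as AAC, any 2 bases, ATG and ATG), the X2 box (TGACGTCA), the shorter Y box (TGATTGG) and, in Ctss, an interferon response element (GAAA, any 2 bases and GAAA).
H2-Aa, chr17:34287847-34287928, minus strand: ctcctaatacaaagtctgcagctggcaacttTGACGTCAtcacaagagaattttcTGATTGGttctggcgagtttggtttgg
H2-Eb1, chr17:34305751-34305832, plus strand: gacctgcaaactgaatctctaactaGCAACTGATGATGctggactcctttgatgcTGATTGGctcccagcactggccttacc
H2-DMb2, chr17:34145102-34145183, plus strand: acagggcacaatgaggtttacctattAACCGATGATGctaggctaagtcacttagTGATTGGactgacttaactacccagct
Ctss, chr3:95526720-95526785, plus strand: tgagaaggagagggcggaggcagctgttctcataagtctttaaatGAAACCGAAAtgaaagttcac

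All 4 stretches lie before the RefSeq start and overlap no annotated exon, and that of H2-DMb2 falls between exons of the longer gene model in GENCODE. The Y box CTGATTGG, searched on both strands, was found in H2-Aa at 51 and in H2-Eb1 at 62 bases before the start, and in 4.1% of all 32851 promoter windows of the same length. Its core ATTGG was in 5 of the 7 genes, H2-Aa, H2-Eb1, H2-DMa, H2-DMb1 and H2-DMb2, and in 37.4% of all windows. The X box core was in H2-Eb1 and H2-DMb1, and in 2.51% of all windows. The other motifs were chosen after these sequences were read, so their presence here is no test. The shorter Y box TGATTGG, which lies within CTGATTGG and holds ATTGG, was in H2-Aa, H2-Eb1, H2-DMb1 and H2-DMb2 (7.82% of all windows). The extended X box core, which overlaps the X box core, was in H2-Eb1, H2-DMb1 and H2-DMb2 (0.137%), and it stood 17 bases before TGATTGG in H2-Eb1 and 18 bases before it in H2-DMb2. TGACGTCA was in H2-Aa alone of the 7 (1.79%), and the interferon response element in Ctss alone (3.44%). Ctss and Ifi30 held none of the X and Y box letters searched in this window.

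Of the 10 genes, 4 rose after LPS, 3 fell and 3 did not pass the test, which was limma on log2(TPM + 1), with p-values adjusted over the 12440 tested genes by Benjamini-Hochberg and called under 0.05. Over all tested genes 16.3% rose and 59.8% fell, so 76.1% were called in either direction, against 7 of these 10. The 4 that rose were H2-Aa, H2-Ab1, H2-Eb1 and Cd74, the 3 that fell were Ciita, Ifi30 and Ctss, and the 3 DM chains were in between. The groups did not overlap in TPM in 7 of the 10, against 78.6% of all tested genes. All 10 passed the filter of 1 TPM in 3 libraries, Ciita only through its Ctrl libraries, so a fall of Ciita was a condition of its being tested. With median-of-ratios scaling the 10 split into 7 higher, 2 lower and 1 not passed, against 31.6% higher and 35.3% lower among all tested genes. The median log2 change of the 10 was 0.28, beside -0.44 for all tested genes.

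**Figure D1:**
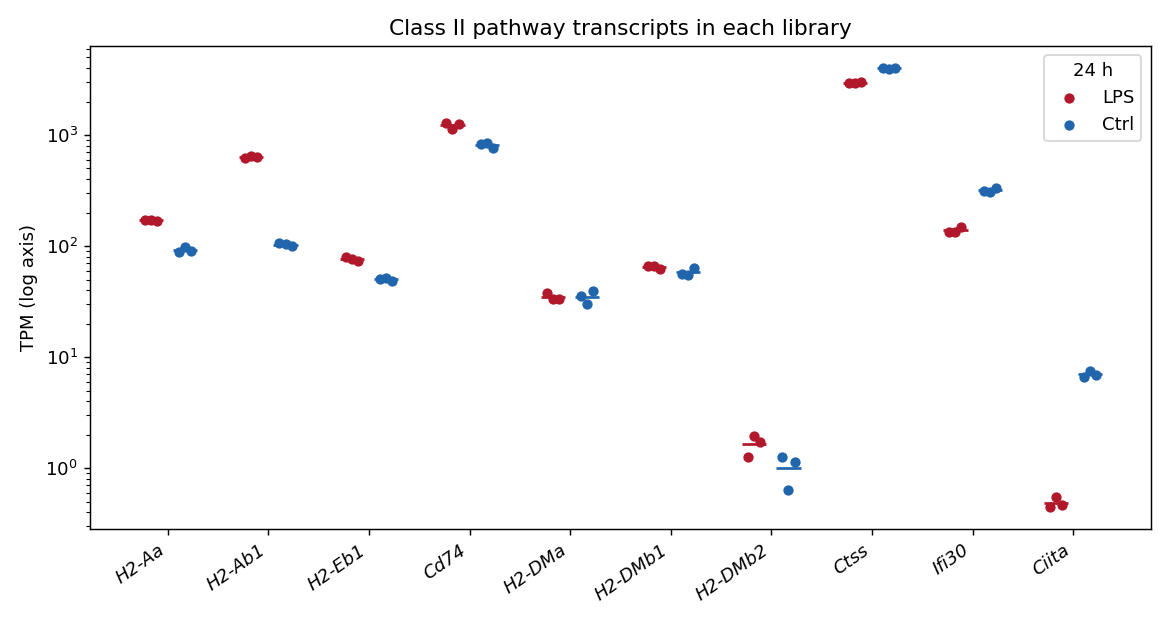
TPM of the 10 class II pathway genes in each library on a log axis, LPS (red, left of each pair) and Ctrl (blue); points are libraries and lines are group means. H2-Ab1 sits at 619 to 643 TPM in LPS libraries, above all Ctrl libraries, and Ciita at 0.45 to 0.55 TPM in LPS libraries, below all Ctrl libraries.

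Among the surface chains, H2-Ab1 rose the most. H2-Ab1 (ENSMUSG00000073421; GRCm38 chromosome 17, 34257689 to 34269419, plus strand) encodes the beta chain of the I-A molecule and had 619, 643 and 635 TPM in LPS libraries, against 106, 104 and 99.8 TPM in Ctrl libraries. Every LPS library was above every Ctrl library, and libraries within a group lay close together. The mean was 632 ± 12.4 TPM in LPS and 103 ± 3.21 TPM in Ctrl libraries (SD, n = 3 each), a 6.13-fold difference, and the log2 change was 2.60 (SE 0.04, limma adjusted p = 1.59e-08).

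H2-Aa (ENSMUSG00000036594; chromosome 17, 34282744 to 34287823, minus strand) encodes the alpha chain that pairs with it. H2-Aa had 173, 171 and 167 TPM in LPS libraries, against 88.5, 98.9 and 89.9 TPM in Ctrl libraries. It rose 1.84-fold, with a log2 change of 0.88 (SE 0.05, limma adjusted p = 5.38e-06). H2-Eb1 (ENSMUSG00000060586; chromosome 17, 34305867 to 34316674, plus strand) encodes the beta chain of the I-E molecule, and had 80.4, 76.7 and 73.3 TPM in LPS libraries, against 50.3, 52.1 and 48.8 TPM in Ctrl libraries. It rose 1.52-fold (log2 change 0.60, SE 0.05, limma adjusted p = 4.09e-05). In both genes the groups did not overlap.

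The summed TPM of the 3 surface chains was 872, 891 and 876 in LPS libraries and 245, 255 and 239 in Ctrl libraries, a 3.57-fold difference of means (exact two-sided permutation p = 0.1, the smallest that 3 against 3 libraries allow). The chains of one molecule did not rise by the same amount. A ratio of 2 genes within a library does not depend on how that library is scaled, and H2-Aa over H2-Ab1 was 0.279, 0.266 and 0.263 in LPS libraries, against 0.833, 0.954 and 0.901 in Ctrl libraries. The ratio was therefore lower in every LPS library, by 1.73 on the log2 scale (exact permutation p = 0.1, 0.143 adjusted over 10 ratios). H2-Eb1 over H2-Ab1 was 0.130, 0.119 and 0.115 in LPS libraries, against 0.474, 0.502 and 0.489 in Ctrl libraries, a log2 difference of -2.01 with the same p-values.

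The remaining class II chain genes were low. H2-Ea, the alpha chain partner of H2-Eb1, was listed at 0 in all 6 libraries, and H2-Eb2 reached at most 0.02 TPM in LPS and 0.04 TPM in Ctrl libraries. H2-Oa and H2-Ob, whose products form DO, an inhibitor of DM, did not pass the filter on low values. H2-Oa had 1.14, 0.75 and 0.82 TPM in LPS libraries and 0.37, 0 and 0 TPM in Ctrl libraries. H2-Ob had 1.24, 0.88 and 0.89 TPM in LPS libraries and 0.80, 0.93 and 0.38 TPM in Ctrl libraries.

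The invariant chain gene rose less than H2-Ab1 and stood above every surface chain in both groups. Cd74 (ENSMUSG00000024610; chromosome 18, 60803848 to 60812652, plus strand) had 1289, 1143 and 1261 TPM in LPS libraries, against 825, 854 and 763 TPM in Ctrl libraries, without overlap. It rose 1.51-fold (log2 change 0.60, SE 0.06, limma adjusted p = 0.000107). Cd74 over H2-Ab1 was 2.08, 1.78 and 1.99 in LPS libraries, against 7.77, 8.24 and 7.64 in Ctrl libraries, a log2 difference of -2.02 (exact permutation p = 0.1, 0.143 adjusted over 10 ratios). Cd74 per H2-Ab1 transcript was thus lower in every LPS library, by a similar amount as H2-Eb1 per H2-Ab1.

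The DM chains did not pass the test on TPM as deposited. H2-DMa (ENSMUSG00000037649; chromosome 17, 34119541 to 34139101, plus strand), the alpha chain, had 37.5, 33.5 and 33.3 TPM in LPS libraries and 35.5, 29.95 and 39.7 TPM in Ctrl libraries, with all LPS libraries inside the Ctrl range (log2 change -0.00, SE 0.11, limma adjusted p = 0.973). H2-DMb1 (ENSMUSG00000079547; chromosome 17, 34153072 to 34160230, plus strand), the main beta chain, had 65.6, 65.7 and 62.6 TPM in LPS libraries and 56.3, 54.97 and 62.95 TPM in Ctrl libraries. Its log2 change was 0.15 (SE 0.06, limma adjusted p = 0.0594), and Ctrl replicate 3 reached into the LPS range. Without that library the change was 0.21 and passed (limma adjusted p = 0.0134).

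H2-DMb2 (ENSMUSG00000037548; chromosome 17, 34143307 to 34151555, plus strand), a second beta chain gene next to it, was near the filter with 1.25, 1.94 and 1.73 TPM in LPS libraries and 1.27, 0.63 and 1.13 TPM in Ctrl libraries. The groups overlapped (log2 change 0.40, SE 0.18, limma adjusted p = 0.0740), and without LPS replicate 1 the change was 0.51 (limma adjusted p = 0.0497). The transcripts of H2-DMb2 and H2-DMb1 were 76.3% identical over their alignment, and 13.5% of the windows of 100 bases in H2-DMb2 also occurred in H2-DMb1. The sources used here do not tell how such shared reads were divided, so the values of H2-DMb2 are uncertain. H2-DMa shares 360 exonic bases, 10.4% of its own, with Brd2 on the other strand, and Brd2 had 133 to 143 TPM in LPS and 151 to 169 TPM in Ctrl libraries, so without known strand use H2-DMa is uncertain too.

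Relative to the median of all tested genes the DM chains lay higher, by 0.44 for H2-DMa, 0.60 for H2-DMb1 and 0.84 for H2-DMb2 on the log2 scale. The value of H2-DMb2 is too large, because near 1 TPM the added 1 damps a shift of scale. After median-of-ratios scaling the log2 changes were 0.44, 0.60 and 0.65 in that order. All 3 then passed as higher (limma adjusted p = 0.0135 for H2-DMa, 0.000280 for H2-DMb1 and 0.0137 for H2-DMb2). Their summed TPM was 101 ± 3.32 in LPS and 94.1 ± 9.18 in Ctrl libraries (SD, n = 3 each; exact permutation p = 0.3). The ratio of beta to alpha chain transcripts, H2-DMb1 plus H2-DMb2 over H2-DMa, was 1.79, 2.02 and 1.93 in LPS libraries and 1.62, 1.86 and 1.61 in Ctrl libraries, with overlap (exact permutation p = 0.2). H2-DMb2 over H2-DMb1 lay between 0.0191 and 0.0295 in LPS and between 0.0115 and 0.0226 in Ctrl libraries, also with overlap (exact permutation p = 0.2). H2-DMa over H2-Ab1 did not overlap, at 0.0605, 0.0522 and 0.0524 in LPS libraries, against 0.334, 0.289 and 0.398 in Ctrl libraries, a log2 difference of -2.62 (exact permutation p = 0.1).

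**Figure D2:**
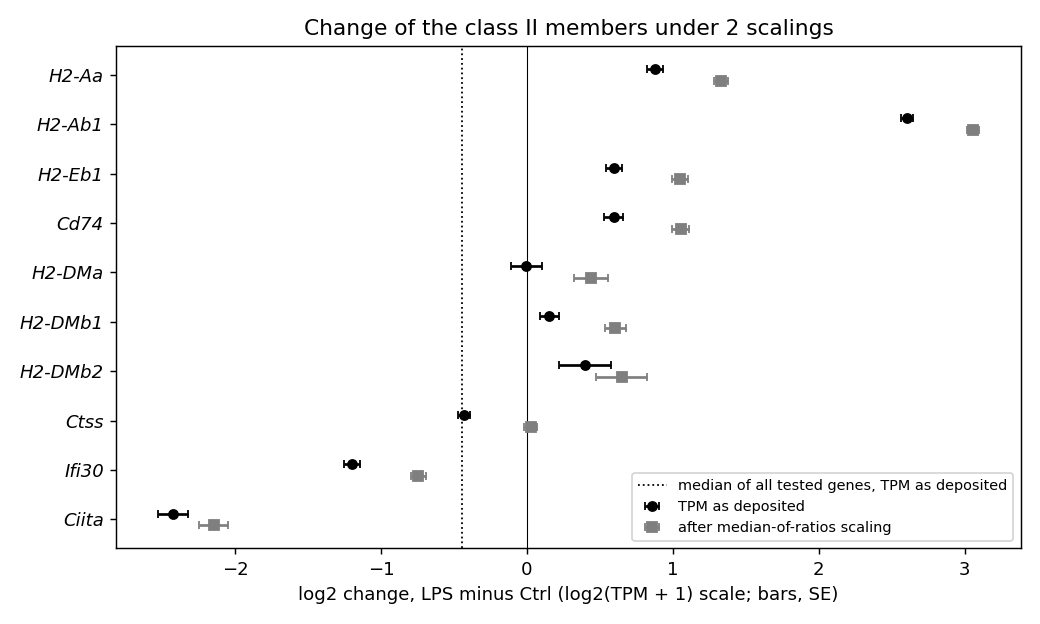
Log2 change of each class II pathway gene, LPS minus Ctrl, with its SE, on TPM as deposited (black circles) and after median-of-ratios scaling (grey squares); the dotted line is the median of all tested genes on TPM as deposited, at -0.44. H2-Ab1 lies farthest to the right and Ciita farthest to the left under both, while the scaling moves the DM chains away from 0 and Ctss to 0.025.

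The endosomal enzymes of the pathway were lower in TPM. Ctss (ENSMUSG00000038642; chromosome 3, 95526786 to 95556403, plus strand) was the most abundant of the 10 genes, with 2959, 2922 and 3022 TPM in LPS libraries, against 4011, 3976 and 4029 TPM in Ctrl libraries. It fell 1.35-fold without overlap (log2 change -0.43, SE 0.04, limma adjusted p = 5.11e-05). That is the change of the median gene, 0.01 above it. After median-of-ratios scaling the log2 change was 0.025 and did not pass (limma adjusted p = 0.646), and after upper-quartile scaling it was -0.10 and did not pass (limma adjusted p = 0.0773). Ctss still fell under quantile normalization, by 0.46 on the log2 scale (limma adjusted p = 3.28e-05), and by 0.18 when Saa3 and Fth1 were removed (limma adjusted p = 0.00529). Ctss over Ctsl, which codes for cathepsin L, another protease known to cut the invariant chain, was 2.86, 2.85 and 2.49 in LPS libraries and 2.70, 2.17 and 2.35 in Ctrl libraries, with overlap (exact permutation p = 0.2).

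Ifi30 (ENSMUSG00000031838; chromosome 8, 70762774 to 70766663, minus strand) had 134, 135 and 147 TPM in LPS libraries, against 316, 310 and 332 TPM in Ctrl libraries. It fell 2.31-fold without overlap (log2 change -1.20, SE 0.05, limma adjusted p = 1.02e-06). The fall held after median-of-ratios scaling, at -0.74 (limma adjusted p = 1.55e-05), and the gene lay 0.76 below the median of all tested genes.

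Ciita fell while the class II chains it is known to drive rose or did not pass. Ciita (ENSMUSG00000022504; chromosome 16, 10480059 to 10528418, plus strand) had 0.45, 0.55 and 0.47 TPM in LPS libraries, against 6.58, 7.51 and 6.96 TPM in Ctrl libraries. Every LPS library lay far below every Ctrl library, and the means differed 14.3-fold. The log2 change was -2.43 (SE 0.10, limma adjusted p = 8.28e-07) on a scale that understates low genes, and -3.59 with a pseudocount of 0.1 in place of 1. After median-of-ratios scaling it was -2.15 (limma adjusted p = 2.01e-06). Ciita shares 329 exonic bases, 3.5% of its own, with Dexi on the other strand, which had 6.6 to 9.06 TPM in LPS and 12.6 to 16.1 TPM in Ctrl libraries. The table gives 1 value per gene, so transcripts from the alternative Ciita promoters could not be told apart.

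Ciita over H2-Ab1 was 0.000727, 0.000855 and 0.000740 in LPS libraries, against 0.0620, 0.0724 and 0.0697 in Ctrl libraries, a log2 difference of -6.46 without overlap (exact permutation p = 0.1, 0.143 adjusted over 10 ratios), or -5.03 with 1 TPM added to both genes. Ciita over Rfx5, the DNA-binding RFX subunit, was 0.0974, 0.126 and 0.106 in LPS libraries, against 0.587, 0.671 and 0.633 in Ctrl libraries, a log2 difference of -2.53 with the same p-values, or -1.28 with 1 TPM added to both genes. Ciita thus lay lower relative to its RFX partner as well, in every LPS library.

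**Figure D3:**
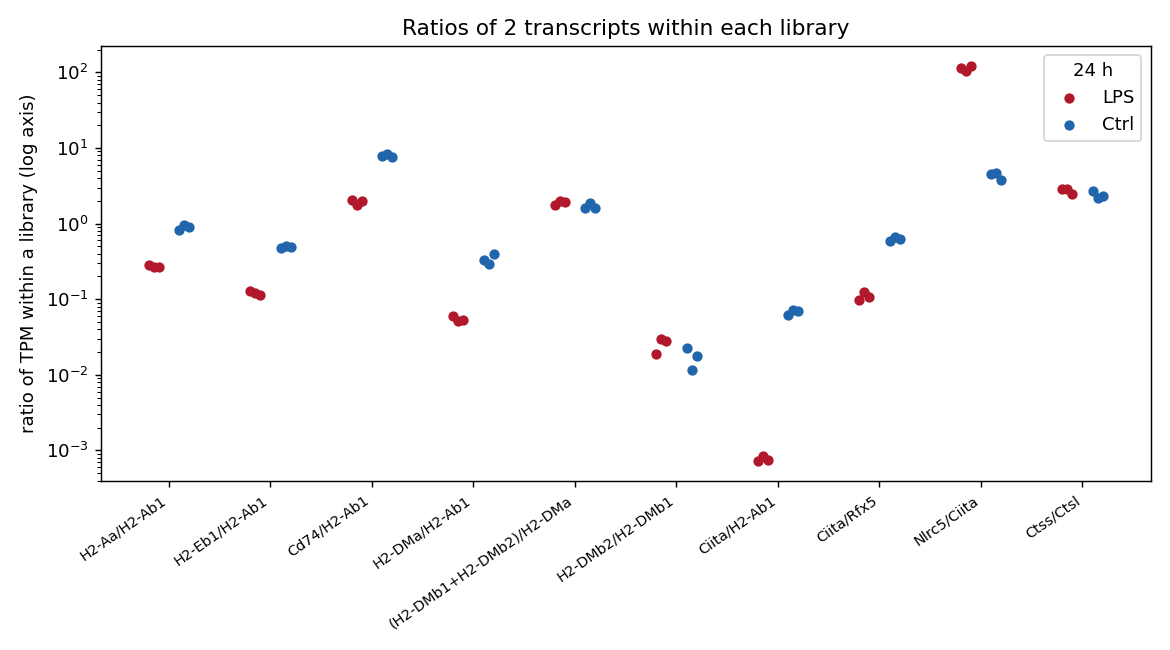
Ratios of TPM of 2 genes within each library, on a log axis, for 10 pairs in LPS (red, left of each pair) and Ctrl (blue) libraries; each point is a library. In 7 of the 10 pairs the groups do not overlap. The TPM of single genes does not overlap in 78.6% of all tested genes, but ratios cancel library scaling and no share was computed for them. Each of these 7 pairs holds H2-Ab1 or Ciita, so the pairs are not independent. Ciita over H2-Ab1 falls to between 0.000727 and 0.000855 in LPS libraries, against 0.0620 to 0.0724 in Ctrl libraries.

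The order of levels changed between the groups. In LPS libraries it ran, by mean TPM, from Ctss over Cd74, H2-Ab1, H2-Aa, Ifi30, H2-Eb1, H2-DMb1, H2-DMa and H2-DMb2 to Ciita. In Ctrl libraries it ran from Ctss over Cd74, Ifi30, H2-Ab1, H2-Aa, H2-DMb1, H2-Eb1, H2-DMa and Ciita to H2-DMb2. In neither group did the libraries of neighbouring genes overlap, although in Ctrl libraries the lowest H2-Ab1 value, 99.8 TPM, was close to the highest H2-Aa value, 98.9 TPM. By Euclidean distance over the 6 libraries in log2(TPM + 1), the genes outside the lists nearest to Ciita were Zbtb8a (0.225), Per3 (0.236) and Efr3b (0.301). Near to H2-Ab1 were Ehd1 (0.511) and Ms4a6b (0.690).

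Other genes of the pathway were taken in 9 lists. Of their 57 tested genes 24 rose, 28 fell and 5 did not pass, where 16.3% of all tested genes rose and 59.8% fell. With median-of-ratios scaling 30 were higher and 16 lower, where 31.6% of all tested genes were higher and 35.3% lower. Of 7 genes for the RFX, NF-Y and CREB proteins, which bind X and Y boxes, 6 fell, where 59.8% of all tested genes fell. None of the 7 rose, and Rfxap, with 13.6 ± 1.72 TPM in LPS and 16.1 ± 2.26 TPM in Ctrl libraries, did not pass. Rfx5 fell to 4.47 ± 0.137 TPM in LPS libraries, against 11.1 ± 0.122 TPM in Ctrl libraries (limma adjusted p = 7.36e-06). Nfyb, an NF-Y subunit, fell to 5.44 ± 0.518 TPM in LPS libraries, against 14.6 ± 0.686 TPM in Ctrl libraries (limma adjusted p = 1.02e-05). The list's median log2 change was -0.53, beside -0.44 for all tested genes, and with median-of-ratios scaling 3 of the 7 were called lower, near the 35.3% of all tested genes.

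Of 8 genes on the route from interferon gamma to Ciita, 3 rose, 4 fell and Irf1 did not pass, where 16.3% of all tested genes rose and 59.8% fell. The kinase gene Jak2 rose to 76.4 ± 0.766 TPM in LPS libraries, against 12.9 ± 1.27 TPM in Ctrl libraries (limma adjusted p = 1.52e-07). The receptor chain gene Ifngr1 fell to 65.2 ± 1.67 TPM in LPS libraries, against 174 ± 2.28 TPM in Ctrl libraries (limma adjusted p = 1.52e-07), and Usf1, whose product binds the interferon-responsive Ciita promoter, to 38.0 ± 1.20 TPM in LPS libraries, against 87.6 ± 7.29 TPM in Ctrl libraries (limma adjusted p = 3.98e-06). Irf1, which acts at the same promoter, had 41.4, 41.8 and 51.1 TPM in LPS libraries and 41.8, 40.5 and 43.9 TPM in Ctrl libraries (limma adjusted p = 0.423), and it passed as higher after median-of-ratios scaling. That scaling left 5 genes of the list higher and 2 lower, where 31.6% of all tested genes were higher and 35.3% lower.

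Among known repressors of Ciita or class II genes, 4 of 5 were tested, of which 1 rose and 1 fell, where 16.3% of all tested genes rose and 59.8% fell. Socs1, which blocks cytokine signalling, rose to 7.36, 7.94 and 8.51 TPM in LPS libraries, against 0.74, 0.36 and 0.69 TPM in Ctrl libraries, and passed the filter only through its LPS libraries (limma adjusted p = 2.40e-06). Ezh2, a histone methyltransferase, fell to 3.96 ± 0.459 TPM in LPS libraries, against 48.6 ± 2.62 TPM in Ctrl libraries (limma adjusted p = 9.32e-08). Prdm1, with 7.02 ± 0.196 TPM in LPS and 7.89 ± 0.720 TPM in Ctrl libraries, and Bcl6, with 28.9 ± 2.13 TPM in LPS and 27.1 ± 2.22 TPM in Ctrl libraries, did not pass on TPM as deposited. After median-of-ratios scaling both were called higher (limma adjusted p = 0.0290 for Prdm1 and 0.000416 for Bcl6). That left 3 of the 4 higher and 1 lower, where 31.6% of all tested genes were higher and 35.3% lower. Of 4 tested myeloid factors, Cebpb and Spi1 rose and Cebpa and Irf8 fell as deposited, beside 16.3% and 59.8% of all tested genes. Spi1, which encodes PU.1, had 511 ± 2.65 TPM in LPS and 435 ± 18.2 TPM in Ctrl libraries, and Cebpa, which encodes a factor of the same family as Cebpb, 13.4 ± 1.18 TPM in LPS and 79.7 ± 2.72 TPM in Ctrl libraries (limma adjusted p = 0.00194 for Spi1 and 1.32e-07 for Cebpa). Cebpb had 108, 114 and 241 TPM in LPS libraries and 34.4, 23.0 and 36.7 TPM in Ctrl libraries, with LPS replicate 3 far above the other LPS libraries (limma adjusted p = 0.000528). Irf8 had 80.4 ± 4.67 TPM in LPS and 102 ± 3.82 TPM in Ctrl libraries (limma adjusted p = 0.00128), and after median-of-ratios scaling its log2 change turned to 0.12 and did not pass (limma adjusted p = 0.0974).

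Of 10 endosomal proteases and inhibitors, 4 rose and 6 fell, and under median-of-ratios scaling 4 were higher and 4 lower. The falls were as frequent as among all tested genes, of which 59.8% fell and, under that scaling, 35.3% were lower, and the rises stood beside 16.3% and 31.6%. Ctsz, a carboxypeptidase, rose to 2859 ± 95.4 TPM in LPS libraries, against 939 ± 27 TPM in Ctrl libraries, and Sppl2a, which cleaves the last membrane fragment of the invariant chain, to 114 ± 3.69 TPM in LPS libraries, against 62.3 ± 6.89 TPM in Ctrl libraries. The asparagine endopeptidase gene Lgmn fell to 362 ± 30.7 TPM in LPS libraries, against 1517 ± 43.5 TPM in Ctrl libraries, and Ctse to 1.90 ± 0.165 TPM in LPS libraries, against 22.5 ± 1.71 TPM in Ctrl libraries. Limma adjusted p-values of these 4 lay between 1.22e-07 and 4.44e-05.

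Of 10 genes of class II ubiquitination and traffic, 2 rose and 7 fell, with 4 higher and 3 lower after median-of-ratios scaling. These counts are near the shares of all tested genes, 16.3% higher and 59.8% lower as deposited and 31.6% higher and 35.3% lower after that scaling. Marchf1, the ligase that ubiquitinates class II and sends it to lysosomes, rose to 119, 121 and 120 TPM in LPS libraries, against 29.1, 30.7 and 29.4 TPM in Ctrl libraries (4.04-fold, log2 change 1.98, limma adjusted p = 4.62e-08). Cd83, whose product is known to oppose MARCH1, had 0.16, 0.34 and 0.22 TPM in LPS libraries, against 20.6, 22.7 and 21.1 TPM in Ctrl libraries (log2 change -4.18, limma adjusted p = 5.65e-08), and passed the filter only through Ctrl libraries. The tetraspanin gene Cd82 rose to 103 ± 3.23 TPM in LPS libraries, against 44.9 ± 3.38 TPM in Ctrl libraries, and Arl8b, of lysosome transport, fell to 45.9 ± 3.73 TPM in LPS libraries, against 98.2 ± 17.5 TPM in Ctrl libraries (limma adjusted p = 3.04e-06 for Cd82 and 0.000156 for Arl8b).

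CD74 at the surface also serves as a receptor for the cytokine MIF. Of 4 tested ligand and partner genes 2 rose and 2 fell, where 16.3% of all tested genes rose and 59.8% fell. Mif had 630 ± 20.4 TPM in LPS and 447 ± 33.6 TPM in Ctrl libraries (limma adjusted p = 0.000226), and Ddt, a relative of Mif, 73.8 ± 4.70 TPM in LPS and 62.2 ± 5.05 TPM in Ctrl libraries (limma adjusted p = 0.0221). The call of Ddt was lost without LPS replicate 1 (limma adjusted p = 0.0744), LPS replicate 2 (0.0703) or Ctrl replicate 2 (0.0526), which leaves 1 gene higher. The partner receptor genes fell, Cxcr4 to 6.16 ± 1.25 TPM in LPS libraries, against 213 ± 21.3 TPM in Ctrl libraries, and Cd44 to 100 ± 3.47 TPM in LPS libraries, against 153 ± 2.93 TPM in Ctrl libraries (limma adjusted p = 1.00e-07 for Cxcr4 and 1.38e-05 for Cd44).

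**Figure D4:**
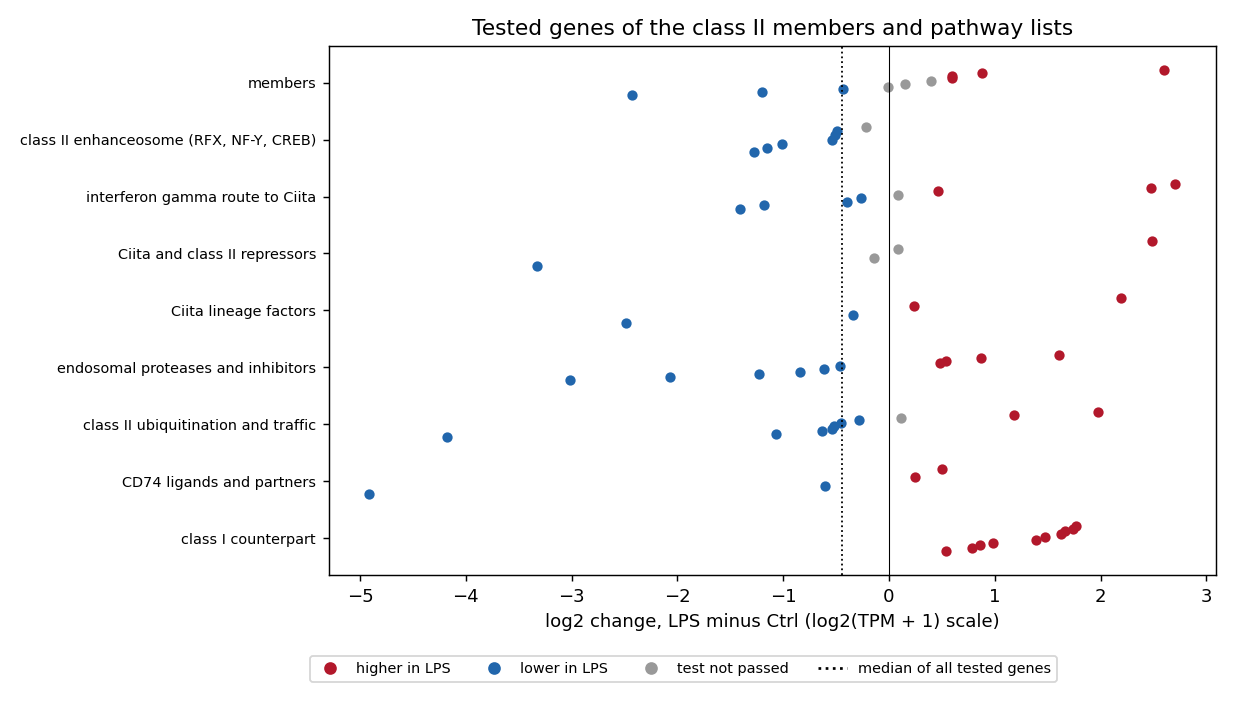
Log2 change, LPS minus Ctrl, of every tested gene of the 10 class II pathway genes (members) and of 8 pathway lists, coloured by the limma call; the dotted line is the median of all tested genes at -0.44. A list of other class II chains is not shown because none of its 4 genes was tested. All 10 genes of the class I list lie to the right of 0, while the class II genes lie on both sides.

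Class I presentation, some of whose genes are known to be driven by the CIITA relative NLRC5, was followed as a counterpart. The list includes Nlrc5 itself, and whether NLRC5 drives the other genes here was not tested. All 10 genes of the list were tested and rose, where 16.3% of all tested genes rose. Their median log2 change was 1.44, beside -0.44 for all tested genes. Nlrc5 had 51.5, 57.5 and 57.7 TPM in LPS libraries, against 29.5, 35.5 and 26.0 TPM in Ctrl libraries (1.83-fold, log2 change 0.86, limma adjusted p = 0.000286). Tapbp, which encodes the peptide-loading chaperone tapasin, rose to 728 ± 21.6 TPM in LPS libraries, against 213 ± 2.89 TPM in Ctrl libraries, and Psmb8, an immunoproteasome subunit gene, to 669 ± 32.3 TPM in LPS libraries, against 199 ± 12 TPM in Ctrl libraries (limma adjusted p = 4.65e-08 for Tapbp and 2.83e-07 for Psmb8). Nlrc5 over Ciita was 114, 105 and 123 in LPS libraries, against 4.48, 4.72 and 3.74 in Ctrl libraries, a 26.5-fold difference without overlap (exact permutation p = 0.1, 0.143 adjusted over 10 ratios). Ciita is low in LPS libraries, and with 1 TPM added to both genes this log2 difference was 3.29 in place of 4.73. The class I transactivator thus stood higher relative to the class II transactivator in every LPS library.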

How the data were processed

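The deposited values are TPM per gene in 6 libraries and, per the file headers, the authors' mean for each group, which equals the library mean to within 3.33e-05 TPM. The file also lists a gene length, another value of the authors, which was not used in any test. Per the submitters' processing notes Bowtie 0.12.2, mm8 and mm9 were used, in roles that are not told; the sources used here do not name the tool behind TPM, the annotation or the use of strand. Libraries were matched to columns by title and replicate number. Coordinates came from GENCODE M21 (GRCm38) by gene identifier.

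The test took genes that reached 1 TPM in 3 or more of the 6 libraries. They were compared with limma 3.58.1 (R 4.3.3, eBayes with a trend) on log2(TPM + 1), LPS minus Ctrl, two-sided, and p-values were adjusted over these genes by Benjamini-Hochberg. Folds are ratios of mean TPM, levels are means ± SD of 3 libraries, and sums and ratios were compared by an exact permutation test. The members, lists and tests were chosen with earlier results of these data known. Besides the 10 members, the rule for named genes took 8 fixed genes, up to 2 of the largest called rises and falls per list and the 3 nearest genes to Ciita and to H2-Ab1, of which some are not reported here; Rfxap, Ctsl, Prdm1, Bcl6, H2-Ea, H2-Eb2, Brd2, Dexi, S100a8, Camp, Mmp8, Itgax, Batf3, Cd79b, Saa3 and Fth1 were added after their values were seen.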

Additional observations from a re-analysis of the deposited data

How the results depend on the processing

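The directions and calls of H2-Aa, H2-Ab1, H2-Eb1, Cd74, Ciita and Ifi30 held under every alternative run. Scaling moved the counts. Of the class II genes 4 were called higher as deposited, 7 after median-of-ratios scaling, 7 under quantile normalization and 7 after upper-quartile scaling, which was added after the data were seen. Genes of the 9 lists called lower, 28 as deposited, were 16 after median-of-ratios scaling. Over all tested genes, 2028 were higher and 7441 lower as deposited, 3936 and 4395 after median-of-ratios scaling, 4029 and 4257 under quantile normalization, 3311 and 5180 after upper-quartile scaling, and 2968 and 5787 with Saa3 and Fth1 left out, which left 6 class II genes higher.

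The log2 fold of summed surface chains, 1.84, was 2.30 after median-of-ratios scaling and 2.09 with Saa3 and Fth1 left out; that of summed DM chains, 0.10, was 0.56 and 0.35. With a pseudocount of 1 in both genes the log2 difference was -5.03 for Ciita over H2-Ab1, -1.28 for Ciita over Rfx5 and 3.29 for Nlrc5 over Ciita.

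H2-DMa, at -0.00, turned to 0.44 after median-of-ratios scaling, 0.41 under quantile normalization, 0.24 with Saa3 and Fth1 left out and 0.32 after upper-quartile scaling, and leaving out single libraries gave -0.11 to 0.088. Ctss turned to 0.025 and Irf8 to 0.12 after median-of-ratios scaling. Irf1 turned to -0.014 without LPS replicate 3 and ran up to 0.14 without others. The cause was not tested for any of these beyond the scaling itself. Leaving out 1 library gave 4 to 5 class II genes higher and 3 lower.

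No pairing by replicate number was seen. Deviations from the group means correlated at 0.07, -0.15 and 0.08 between libraries of the same number. Between libraries of different number they correlated at -0.19 to 0.12. With 3 libraries per group this cannot tell whether libraries of the same number share a culture or animal. With the replicate block 4 class II genes rose and 3 fell, 24 list genes rose and 29 fell, and over all tested genes 1993 rose and 7304 fell. TPM keeps no depth, so the precision of low genes such as Ciita and H2-DMb2 is unknown.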

Other observations

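Ranked by mean TPM among the 12440 tested genes, H2-Ab1 stood at 207 in LPS and 1427 in Ctrl libraries, H2-Aa at 767 in LPS and 1613 in Ctrl libraries, H2-Eb1 at 1678 in LPS and 3054 in Ctrl libraries, and Cd74 at 74 in LPS and 176 in Ctrl libraries. Ifi30 stood at 966 in LPS and 434 in Ctrl libraries, and Ciita at 12017 in LPS and 9088 in Ctrl libraries. Ctss was among the most abundant transcripts in both groups, at 28 in LPS and 20 in Ctrl libraries. A factor shared by the 3 libraries of a group would not change the order of these means. Factors that differ between libraries could, and the set of ranked genes rests on a filter in TPM. Ranks under other scalings were not computed.

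Irf4, which encodes a factor of class II expression in other antigen-presenting cells, was below the filter, with 0.03, 0.05 and 0.05 TPM in LPS libraries and 0.77, 0.95 and 1.05 TPM in Ctrl libraries. It was named after its values were seen. Low genes of this kind were not tested, and no depth is known for them.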
